A study of Mus musculus with 8 samples.

Results

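Mouse ES cells of the CCE line were compared with embryoid bodies grown from them for 10 days, per their labels without added Bmi1. The comparison used 4 of the 8 arrays of the series, chosen by their sample titles: 2 arrays of embryoid bodies from cells that carried the empty lentiviral vector (vector EB 1 and vector EB 2), 1 array of untreated ES cells and 1 array of ES cells with the empty vector. Both ES cell arrays together formed the control ES cell group, so the groups held 2 arrays each. The other 4 arrays came from cells labelled as transduced with a Bmi1 cDNA, 2 per stage, and they entered the model to estimate the spread of each gene. All cells were of strain 129/Sv and, per the labels, were grown on gelatin in serum with leukemia inhibitory factor (LIF). Transduced cells were sorted for eGFP. The untreated ES cells carried no vector, whereas both embryoid body arrays did. Embryoid bodies were made in bacterial Petri dishes, where the cells do not attach. The labels do not say whether LIF was present in that step or whether arrays of a group came from separate cultures. P-values therefore reflect variation among these arrays, possibly only technical variation, and with so few arrays every value is of limited precision.

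An ES cell keeps its undifferentiated state through a small set of transcription factors, among them Oct4 (encoded by Pou5f1), Sox2 and Nanog, which sustain their own genes and one another's. LIF supports this state through its receptor and Stat3. When ES cells aggregate into embryoid bodies this network is shut off, and derivatives of mesoderm, endoderm and ectoderm appear side by side without a body plan, including embryonic red cells, endothelium and beating heart muscle.

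The labels of the ES cells were checked against their markers. All 9 ES cell markers (Pou5f1, Nanog, Sox2, Zfp42, Klf4, Esrrb, Fgf4, Utf1 and Dppa5a) lay far above the array medians of 5.61 and 5.60 log2 units in both control ES cell arrays, between 10.63 and 14.53. Of 8 fibroblast markers, which feeder cells would bring, Col3a1, Lum, Prrx1, Col1a1 and Twist2 read between 2.92 and 4.79 there, below those medians. Dcn and Col1a2 read between 5.17 and 5.50, close to the medians, and Thy1 read 5.83 and 5.50, on either side of them. Bmi1 itself read 5.68 to 8.51 in the arrays labelled Bmi1 and 7.41 to 9.67 in the 4 arrays described here. Its signal was lower in the labelled arrays at each stage, so these are called "labelled Bmi1" throughout.

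The deposited values fell into 3 sets with nearly equal distributions inside each. Vector EB 1 and its labelled Bmi1 counterpart formed one, vector EB 2 and its counterpart another, and all 4 arrays of ES cells the last. Each set held 1 stage, so a small difference between stages cannot be told apart from a difference between sets. The spread of values over probe sets was narrower in the embryoid body arrays (SD 2.17 and 2.37 log2 units) than in the control ES cell arrays (2.56 and 2.58). When tested genes were divided into 10 equal classes by signal, in the dimmest class the median log2 difference was 0.64, and in the brightest it was -0.998. After quantile normalization of the 8 arrays, which gives them 1 common distribution, these medians were 0.32 and -0.11. For this reason changes of at least 4-fold lead the account, and values after quantile normalization are given for groups of bright genes.

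**Figure D1:**
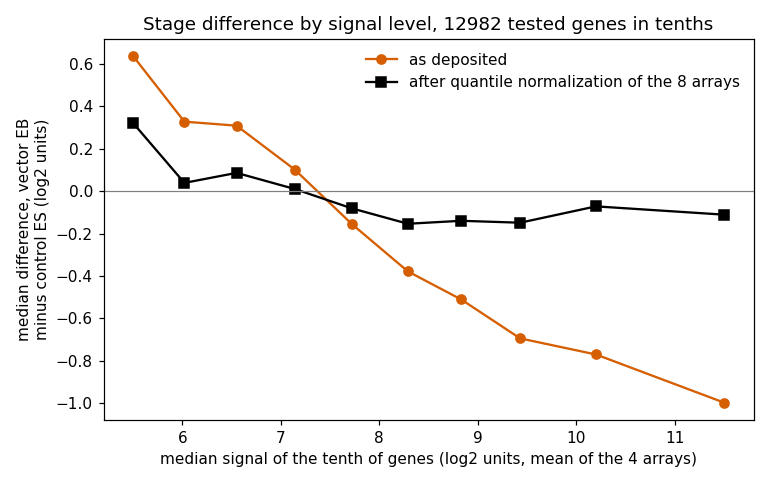
Median log2 difference, vector embryoid bodies minus control ES cells, in each of 10 equal classes of the 12982 tested genes (vertical axis, log2 units) against the median signal of that class (horizontal axis, log2 units, mean of the 4 arrays), for deposited and quantile-normalized values. The deposited line falls from 0.64 to -0.998, and the quantile-normalized line runs from 0.32 to -0.11.

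A large part of the tested genes differed between vector embryoid bodies and control ES cells, which also lay in different array sets. By limma, 7593 of 12982 tested genes (58.5%) passed the threshold of adjusted p 0.05, of which 2946 (22.7%) were higher and 4647 (35.8%) lower in embryoid bodies. The counts of each gene list below are to be read beside these shares of 22.7% and 35.8%. Tested genes lay above the array median on at least 2 of the 8 arrays. A gene dim in all ES cell arrays was tested only where embryoid body arrays were bright, so this filter favours rises among such genes. Counts called higher are therefore no support for a rise of lists that hold such genes. List medians are over all measured members, tested or not. A change of at least 4-fold was called for 1643 genes (12.7%), 978 of them higher (7.53%) and 665 lower (5.12%). The extremes were one-sided: 474 genes rose and 111 fell by at least 8-fold, 194 rose and 20 fell by at least 16-fold, and 82 rose and 3 fell by at least 32-fold. In all 1643 genes the embryoid body arrays did not overlap the ES cell arrays. Over all tested genes such separation was found upward in 32.2% and downward in 48.8%. The median log2 difference was -0.24 over the tested genes and -0.04 over all 18193 measured genes. The fit took arrays as independent and of equal spread. Yet deviations of same-numbered embryoid body arrays correlated at 0.72, and the embryoid body pair differed more (0.67) than the ES cell pair (0.23, root mean squares). These p-values and counts are therefore approximate: 6891 genes were called with array weights and 9712 with a replicate block.

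The number of large falls depended on single arrays and on scaling more than that of large rises. Large rises and falls numbered 923 and 384 without vector EB 1, and 1059 and 1175 without vector EB 2. Higher genes made up 38.8% of calls and 59.5% of 4-fold calls with the deposited values. These shares were 48.7% and 70.8% after quantile normalization, 26.6% and 38.9% after centring each array on its median, and 86% and 95.9% after centring on housekeeping genes. Of the 978 large rises, 887 were also called at 4-fold or more with quantile-normalized values, and of the 665 large falls, 373 were. Genes that stayed called at less than 4-fold are not in these counts.

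The core pluripotency network fell as a whole. Of 18 measured factors 17 were called lower and none higher, with a median log2 difference of -3.06, or -3.93 in vector EB 1 and -2.03 in vector EB 2. Pou5f1, which encodes Oct4, read 7.44 and 9.43 in vector EB 1 and 2 against 13.47 in untreated and 13.54 in vector ES cells. It fell by 5.07 ± 0.56 on the log2 scale (SE of the limma fit, adjusted p = 0.00043), about 33.5-fold. Both embryoid body values lay below both ES cell values, and vector EB 1 was the lower. The signals of such whole-culture RNA cannot tell fewer undifferentiated cells apart from less RNA in each.

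Nanog, a homeodomain factor of the naive state, read 7.89 and 10.76 in vector EB 1 and 2 and 12.86 and 12.76 in untreated and vector ES cells, a log2 difference of -3.49 ± 0.88 (adjusted p = 0.012). Its promoter is printed because it holds the composite element that Sox2 and Oct4 are known to bind together, and both of these genes fell with it. The 250 bases before its start lie on chromosome 6 of GRCm38.p6 at chr6:122707239-122707488, plus strand (RefSeq). Capitals mark the match to the Sox2-Oct4 composite motif, searched on both strands and found here on the opposite strand, 75 to 62 bases before the start.
Nanog: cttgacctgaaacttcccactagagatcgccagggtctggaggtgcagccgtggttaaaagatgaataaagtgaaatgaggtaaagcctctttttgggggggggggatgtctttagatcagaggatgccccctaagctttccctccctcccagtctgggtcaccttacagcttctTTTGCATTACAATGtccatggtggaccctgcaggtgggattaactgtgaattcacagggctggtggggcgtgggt
The motif was searched as a single string of almost wholly fixed letters, chosen after the sequences were seen. Of 32851 promoter windows of this length, 2 held that string (0.00609%), and both were windows of Nanog. As the string was chosen to match the Nanog element, this count cannot show how rare the composite motif is in promoters. A match of letters describes the sequence and is no measurement of binding.

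Among the partners of these factors, Klf4 and Klf5, zinc finger factors of the naive state, fell by 3.28 ± 0.39 and 3.53 ± 0.45 on the log2 scale, with a dim probe set of Klf5 at 0.18. Klf4 read 8.70 and 9.83 against 12.55 in each ES cell array. Tfcp2l1, a LIF-responsive factor, read 6.99 and 8.65 against 11.13 and 11.58 (-3.54 ± 0.53, adjusted p = 0.0014). Nr0b1 (Dax1), an orphan nuclear receptor, read 6.06 and 8.67 against 11.79 and 11.93, and fell by 4.49 ± 0.93. Nr5a2, which can activate Pou5f1, and Utf1, a chromatin protein, fell by 2.94 ± 0.34 and 3.06 ± 0.45, although another, dim probe set of Utf1 was at 1.11 and one of Nr5a2 at 0.43. Sox2 stayed the brightest of the core factors in embryoid bodies, at 9.70 and 11.66 against 13.05 and 12.97, a log2 difference of -2.33 ± 0.69 (adjusted p = 0.023). Prdm14, named because it was the single member not called, read 5.86 and 8.11 against 8.85 and 8.64 (adjusted p = 0.084).

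The calls of Nanog, Sox2 and Zfp42 rested on 2 ES cell arrays. Without the untreated array their adjusted p were 0.057, 0.09 and 0.064, and without the vector ES array 0.053, 0.082 and 0.062. Sox2 was at -1.35 without vector EB 1. With quantile-normalized values Sox2 was at -1.40 and Zfp42 at -1.96, and neither was called by limma (adjusted p = 0.126 and 0.064). Nanog stayed called there, at -2.725 (adjusted p = 0.041). Over the list, 12 members were called without the untreated array, and 15 were called with quantile-normalized values, at a median of -2.47.

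Genes that mark ES cells without belonging to the core network fell with it, 18 of 18 measured, at a median of -2.79 (-3.72 in vector EB 1 and -1.88 in vector EB 2). L1td1, an RNA-binding protein derived from a transposon, read 8.46 and 10.30 against 13.52 and 13.57, and fell by 4.17 ± 0.54. Eras, a Ras-like GTPase of ES cells, read 5.57 and 8.38 against 11.33 and 11.05 (-4.21 ± 1.02), and its adjusted p was 0.053 without the untreated array. Gdf3, a TGF-beta family ligand, fell by 3.55 ± 0.60 and Mybl2, a cell cycle factor, by 3.18 ± 0.58. Lin28a, which blocks maturation of let-7 RNAs, read 6.29 in vector EB 1 but 10.04 in vector EB 2, against 11.55 and 11.41. Its difference of -3.32 ± 1.14 (adjusted p = 0.04) was not called without vector EB 1 (-1.44) without either ES cell array, or with quantile-normalized values, and another probe set was at 0.79. Without the untreated array 11 of the 18 stayed called.

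The 20 largest falls reached beyond pluripotency. Gbx2, a homeobox gene that acts downstream of LIF, fell most, from 10.68 and 11.03 in ES cells to 4.12 and 4.45 in vector EB 1 and 2, by 6.56 ± 0.24 on the log2 scale (adjusted p = 1.53e-05). Here both embryoid body arrays lay below the array median, and they differed by only 0.33. Hsf2, a heat shock factor, read 2.91 and 3.43 against 8.13 and 8.22 (-5.01 ± 0.21), while another, dim probe set was at 0.66. Slc27a2, a fatty acid transporter, fell by 4.95 ± 0.45, Nefh, the heavy neurofilament, by 4.84 ± 0.32, and Inhbb, the activin beta B subunit, by 4.47 ± 0.22. Krt17, a keratin, read 3.17 and 3.0 against 7.42 and 7.30, and its other, dim probe set was at 0.44. The splicing and export factors Alyref and Hnrnpl fell by 4.08 ± 0.54 and 4.01 ± 0.44. Eprn, Rbmxl2, Pcolce2, Snhg3, Mylpf, 4930444M15Rik, Accsl and Epop completed the list, between -4.55 and -4.14.

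LIF pathway genes were lower where they passed. Of 12 measured members 9 were called lower (5 with quantile-normalized values) and none higher, with a median of -1.39, or -0.94 with quantile-normalized values. Besides Gbx2 and Klf4, Bcl3, an atypical IkB protein, read 7.54 and 6.97 against 9.04 and 9.25 (-1.89 ± 0.25), and the kinase gene Pim3 fell by 1.98 ± 0.22. Socs3, the feedback inhibitor of LIF signalling, read 10.05 and 8.80 against 11.28 and 11.68 (-2.05 ± 0.39, adjusted p = 0.0036), and was not called with quantile-normalized values (adjusted p = 0.066). The receptor gene Lifr was at -1.02 ± 0.20 and lost its call after quantile normalization (-0.32, adjusted p = 0.1).

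Most genes of DNA methylation and demethylation, of enzymes and of their partners, fell with the ES cell state. Of 9 measured 7 were called lower, with a median of -2.32 (-3.08 in vector EB 1 and -1.57 in vector EB 2, and -1.63 with quantile-normalized values). Tet1, which oxidises methylcytosine and is abundant in ES cells, read 8.15 and 9.36 against 12.39 and 12.38, a fall of 3.63 ± 0.46 on the log2 scale. Tet2 fell by 2.27 ± 0.23. Dnmt3l, the partner of the de novo methyltransferases, read 6.64 and 9.02 against 11.31 and 11.69 (-3.67 ± 0.77). Uhrf1, which brings Dnmt1 to replicating DNA, fell by 3.37 ± 0.57 and Dnmt1 by 2.32 ± 0.50. Mbd3, of the NuRD complex, fell by 1.99 ± 0.32. Dnmt3a was the tested member not called, at 8.41 in both embryoid body arrays against 9.37 and 8.93, and was singled out after its values were seen. The remaining member, Tet3, was too dim to test and went the other way. It was at 1.07, with both embryoid body arrays above both ES cell arrays.

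Polycomb genes, which encode repressors of developmental genes, were called in both directions. Of 23 measured, 7 were called higher and 9 lower, near the 22.7% and 35.8% of all tested genes, with a median of -0.12. Cbx7, the ES cell form of the chromodomain subunit, read 7.40 and 8.50 against 10.64 and 10.40 (-2.56 ± 0.34, with another, dim probe set at 0.53), and Phc1 fell by 2.63 ± 0.35. Eed, of Polycomb repressive complex 2, fell by 2.21 ± 0.26, with another, dim probe set at 0.34. In the other direction Yaf2 rose from 7.56 and 7.57 to 10.53 in both embryoid body arrays (2.97 ± 0.22), and Scmh1 rose by 1.44 ± 0.21. Bmi1, named because the series is about it, read 9.35 and 9.67 against 7.41 and 7.74, a rise of 1.94 ± 0.37 (adjusted p = 0.0037) between arrays labelled as vector or untreated.

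Mesenchyme and its matrix gave the largest rises. Of 19 measured collagen genes and collagen-processing enzymes 16 were called higher and 1 lower, with a median log2 difference of 3.51 (4.02 in vector EB 1 and 2.76 in vector EB 2). Col3a1, the chain of fibrillar collagen III, read 13.52 and 12.60 in embryoid bodies against 2.99 and 2.92 in ES cells, a rise of 10.11 ± 0.29 (adjusted p = 9.01e-06). Its ES cell signal, like those of Afp and Hbb-y, lay far below the array median, so that such differences are limited by the low end of the scale and are given without a fold. It went from among the dimmest genes of ES cells to among the brightest of embryoid bodies. Col1a1 and Col1a2, the chains of collagen I, rose by 6.48 ± 0.54 and 6.38 ± 0.54, and Col5a1 by 5.24 ± 0.39. Serpinh1, the collagen chaperone, read 11.21 and 11.32 against 7.44 and 7.28. Col18a1, the single member called lower, was at -0.82. It was not called without the untreated or the vector ES array (adjusted p = 0.056 and 0.086), or with quantile-normalized values (-0.04).

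Proteins that decorate collagen fibres rose as well, with 11 of 17 measured called higher, 1 lower and a median of 2.60. The lower call, that of Matn4 (-0.61), was lost without vector EB 1 or either ES cell array. Lum (lumican) read 13.05 and 10.80 against 3.54 and 3.72 (8.29 ± 0.67). Postn (periostin) read 12.92 and 11.22 against 4.58 and 4.49 (7.54 ± 0.49). In each of these genes vector EB 1 was the higher array by over 1.5 log2 units. Fbn2, fibrillin 2 of embryonic elastic fibres, was higher in vector EB 2, at 10.23 against 9.26 in vector EB 1, and rose by 5.17 ± 0.47.

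The cadherin and transcription factor genes of the mesenchymal state followed, 11 of 14 called higher and 1 lower, with a median of 2.38. Cdh11, the cadherin of mesenchyme, rose from 3.23 and 3.11 to 12.84 and 12.21, by 9.36 ± 0.22. Snai2, a repressor of E-cadherin, rose by 6.11 ± 0.30, Prrx1 by 4.90 ± 0.21, Twist2 by 4.71 ± 0.32 and the N-cadherin gene Cdh2 by 2.23 ± 0.24. The E-cadherin gene Cdh1, the single member called lower, read 9.84 and 11.44 against 12.52 and 12.29. Its difference of -1.77 ± 0.46 was not called without the untreated array (-1.65, adjusted p = 0.071) or with quantile-normalized values (-0.86). Pdgfra, the PDGF receptor of paraxial mesoderm and mesenchyme, rose by 6.42 ± 0.31 from 4.38 and 4.99 to 11.46 and 10.74. Nrp1, a semaphorin and VEGF co-receptor, rose by 6.84 ± 0.30, Epha3, an ephrin receptor, by 6.38 ± 0.52, and Maf, a leucine zipper factor, by 7.26 ± 0.34, though another probe set of Maf was at -0.11. Ctla2a, Prss23 and Capn6 were also among the 20 largest rises, at 6.95, 6.57 and 6.24.

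**Figure D2:**
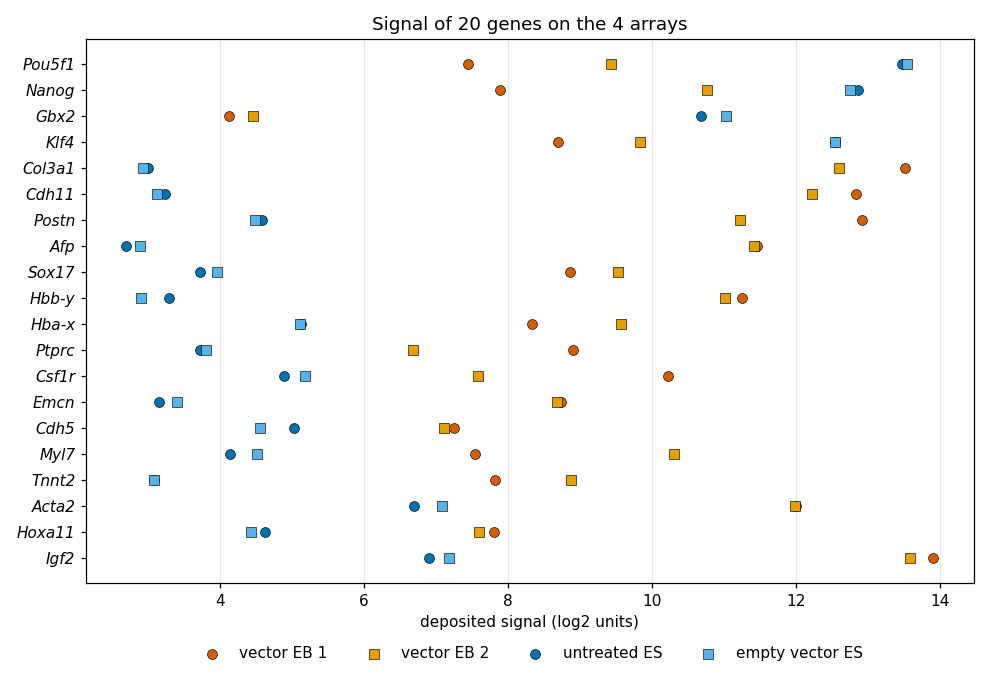
Deposited signal (horizontal axis, log2 units) of 20 genes named in the text on each of the 4 arrays, 1 point per array. Pou5f1, Nanog, Gbx2 and Klf4 lie lower in both embryoid body arrays, and the other 16 genes lie higher, from Col3a1 (13.52 and 12.60 against 2.99 and 2.92) to Igf2 (13.91 and 13.59 against 6.90 and 7.18).

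Genes of the primitive streak, the transient site of mesoderm formation, were mostly dim or modestly changed. Of 17 measured, 6 were too dim to test, 7 were called higher and 1 lower, with a median of 0.75. Kdr, the VEGF receptor of early vascular mesoderm, rose by 2.51 ± 0.21, Hand1, of extraembryonic and lateral mesoderm, by 1.88 ± 0.17, and Foxf1, of lateral mesoderm, by 1.06 ± 0.18, with another probe set at 3.22. Cdx1 read 4.15 and 4.42 against 5.57 and 5.76 (-1.38 ± 0.21). Eomes and Mixl1, streak factors named after their values were seen, read 5.65 and 5.60 in vector EB 1, 8.45 and 6.96 in vector EB 2 and 5.82 to 6.57 in ES cells, and were not called. The count called higher was 4 without either ES cell array.

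Visceral endoderm genes were higher at the median over all measured members. It was 1.35 (0.98 in vector EB 1 and 1.80 in vector EB 2). Of 23 measured, 6 were too dim to test, and 11 were called higher and none lower, 10 of them by at least 4-fold. Afp (alpha-fetoprotein), the classic secreted product of this tissue, read 11.46 and 11.42 against 2.69 and 2.89, a rise of 8.65 ± 0.29 (adjusted p = 1.36e-05). Both embryoid body arrays were nearly equal. The transcription factor genes Gata6, Sox17 and Gata4 rose by 5.56 ± 0.31, 5.36 ± 0.28 and 2.74 ± 0.28. Sox17 read 8.87 and 9.53 against 3.72 and 3.96. Ttr, a thyroid hormone carrier, Rbp4, the retinol carrier, and Dab2, an endocytic adaptor, rose by 2.70 ± 0.30, 4.18 ± 0.45 and 3.68 ± 0.20, and the 3 other probe sets of Ttr were at 6.58 to 7.24.

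The defining markers of visceral endoderm did not all move. Apoa1 rose by 2.42 ± 0.47 and Hnf4a by 1.08 ± 0.26, but Hnf4a was not called without the vector ES array (adjusted p = 0.058) or with quantile-normalized values. Amn (amnionless), of the apical uptake complex, read 5.14 and 5.59 against 6.31 and 6.02 and was not called (adjusted p = 0.068). Foxa2, of endoderm and node, read 6.42 and 8.50 against 5.19 in each ES cell array. Its difference of 2.27 ± 0.60 had an adjusted p of 0.063 without either ES cell array. Without vector EB 2, 3 members of the list were called lower.

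Basement membrane genes moved unevenly, with 5 of 12 called higher, 1 lower and a median of 0.52. Col4a1 and Col4a2, the chains of collagen IV, rose by 3.31 ± 0.27 and 4.59 ± 0.47, and Plat, the tissue plasminogen activator, by 4.37 ± 0.21. Sparc, a collagen-binding protein already bright in ES cells, read 12.46 and 11.62 against 9.49 and 10.33 (2.13 ± 0.36). The laminin chains diverged: Lamc1 fell by 1.51 ± 0.28, whereas Lamb1 rose by 1.06 ± 0.22, a call that was lost without the untreated array (adjusted p = 0.051) and that another, dim probe set did not share (-0.31).

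Blood formation was visible in the embryonic globins. Hbb-y, the embryonic beta-like globin of yolk sac red cells, read 11.25 and 11.01 against 3.29 and 2.89, a rise of 8.04 ± 0.29 (adjusted p = 1.48e-05). Hbb-bh1, another beta-like globin, read 9.74 and 10.83 against 4.27 and 4.66 (5.82 ± 0.46), and Hba-x, the zeta-like alpha globin, 8.33 and 9.58 against 5.13 and 5.11 (3.83 ± 0.38). The adult globin Hba-a1, named for contrast after its values were seen, was too dim to test, at 4.80 and 4.45 against 4.29 and 4.0. Probes of this family may read more than 1 member.

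The promoters of Hbb-y and Hba-x are printed because these genes rose together and such short elements are known in globin promoters. Both are the 250 bases before the RefSeq start in GRCm38.p6, that of Hbb-y at chr7:103853208-103853457 on the minus strand and that of Hba-x at chr11:32276350-32276599 on the plus strand. Capitals mark the matches found. The letters searched for GATA factors were AGATAA, and also TGATAA. The letters CCACCC are the CACCC box, which Klf1-like factors bind, and CCAAT is the CCAAT box. These were searched on both strands, and TATAAA on the strand of the gene alone.
Hbb-y: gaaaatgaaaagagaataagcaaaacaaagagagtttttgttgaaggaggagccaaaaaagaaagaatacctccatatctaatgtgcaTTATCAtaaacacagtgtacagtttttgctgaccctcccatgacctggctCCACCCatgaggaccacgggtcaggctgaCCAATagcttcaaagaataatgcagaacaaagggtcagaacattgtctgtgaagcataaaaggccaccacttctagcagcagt
Hba-x: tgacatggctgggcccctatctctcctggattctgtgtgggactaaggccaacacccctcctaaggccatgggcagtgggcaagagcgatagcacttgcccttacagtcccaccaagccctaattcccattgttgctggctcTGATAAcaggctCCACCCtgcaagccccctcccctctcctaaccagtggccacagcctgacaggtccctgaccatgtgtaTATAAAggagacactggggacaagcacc
In Hbb-y the GATA match lay 162 to 157, the CACCC box 112 to 107 and CCAAT 83 to 79 bases before the start. In Hba-x the GATA match lay 108 to 103, the CACCC box 96 to 91 and TATAAA 28 to 23 bases before it. These motifs did not overlap in either window, and each is common: 16.6% of 32851 windows held the GATA letters, 28.1% CCACCC, 33.8% CCAAT and 7.59% TATAAA. Of 10 red cell genes with a listed promoter, 8 held the GATA letters and 8 held CCACCC.

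The rest of the red cell list rose less or not at all. Of 15 measured members 4 were called higher and 2 lower, with 6 too dim to test and a median of 0.65. These were 4 and 2 of 9 tested members, while 22.7% of all tested genes were called higher and 35.8% lower. As the filter favours rises among genes dim in ES cells, the count is no support for a rise of the list. Gata1, the erythroid GATA factor, read 7.25 and 7.01 against 5.25 and 5.11 (1.95 ± 0.21). Klf1, the erythroid factor of CACCC boxes, read 6.03 and 5.82 against 6.17 and 6.09 and was not called; it was named after its values were seen. Tfrc, the transferrin receptor that dividing cells also use, fell by 1.98 ± 0.20, but 2 dimmer probe sets of it were at 0.55 and 0.76. Car2, a carbonic anhydrase, was at -2.36 ± 0.60, and its call was lost without the vector ES array (-2.13, adjusted p = 0.073) and with quantile-normalized values (-1.59).

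Of 16 transcription factors of blood formation, 9 were called higher and 1 lower, with a median of 0.89 (6 higher without either ES cell array). Etv6, the one called lower, fell by 1.29 ± 0.29. Fli1, an Ets factor of blood and endothelium, read 8.11 and 8.17 against 3.07 and 2.64 (5.29 ± 0.21). Lyl1 and Lmo2, partners in the blood stem cell complex, rose by 2.99 ± 0.16 and 2.68 ± 0.22, and Meis1 by 2.89 ± 0.36. Ikzf1 (Ikaros), of lymphoid and myeloid cells, read 7.76 and 6.32 against 4.78 and 4.18 (2.55 ± 0.46).

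Macrophage and general leukocyte genes were higher at the median, and here the embryoid body arrays stood far apart. Of 23 measured, 4 were too dim to test, 16 were called higher and 1 lower. The median was 2.58, made of 3.64 in vector EB 1 and 1.36 in vector EB 2. Csf1r, the receptor for macrophage colony-stimulating factor, read 10.22 in vector EB 1 and 7.58 in vector EB 2, against 4.89 and 5.18 (3.87 ± 0.75). Ptprc (CD45), the pan-leukocyte phosphatase, read 8.91 and 6.68 against 3.72 and 3.80 (4.04 ± 0.61). Ctss, a lysosomal protease, C1qb, a complement subunit, and Cd14, the endotoxin co-receptor, rose by 5.13 ± 0.74, 4.15 ± 0.63 and 3.68 ± 0.45, and Fcer1g and Tyrobp, signalling adaptors, by 3.38 ± 0.51 and 3.53 ± 0.75. By the probe sets used, both embryoid body arrays lay above both ES cell arrays in each of these genes. Other probe sets of Csf1r were at 1.71 and 0.21, the latter with 6.64 and 5.87 against 6.05 and 6.06. Another, dim probe set of Ptprc was at 0.23. Cd68, a lysosomal marker fixed as defining, read 7.29 and 6.93 against 7.06 and 7.32 and was not called. Laptm5, the single member called lower, was not called without vector EB 2 or either ES cell array, or after quantile normalization.

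Endothelial genes rose, to similar medians in both embryoid body arrays: 15 of 22 measured were called higher and none lower, with a median of 2.09 (1.82 and 2.12 in vector EB 1 and 2). Emcn (endomucin), a surface sialomucin, read 8.74 and 8.69 against 3.14 and 3.39 (5.45 ± 0.18, adjusted p = 1.36e-05). Cdh5 (VE-cadherin), of endothelial junctions, read 7.25 and 7.12 against 5.02 and 4.55 (2.39 ± 0.26). Flt1, a VEGF receptor, Tek, the angiopoietin receptor, and Pecam1 rose by 2.55 ± 0.16, 2.12 ± 0.22 and 1.74 ± 0.36. Icam2 and Ramp2 rose by 3.20 ± 0.23 and 2.72 ± 0.18. Aplnr, the apelin receptor of venous and progenitor endothelium, was among the 20 largest rises, from 3.29 and 3.12 to 9.63 and 9.72. Cd93, of endothelium and myeloid cells, rose by 6.49 ± 0.24, with another, dim probe set at -0.13.

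Heart muscle genes were higher at the median, 1.47 over all 24 measured (1.04 in vector EB 1 and 2.09 in vector EB 2). Of these 3 were too dim to test, 14 were called higher and none lower. Hand2, a factor of heart and limb mesenchyme, rose by 7.10 ± 0.26, from 3.98 in both ES cell arrays to 11.49 and 10.67. Tnnt2, cardiac troponin T, read 7.82 and 8.87 against 3.08 in each ES cell array (5.26 ± 0.33). Myl7, the atrial myosin light chain, read 7.54 in vector EB 1 and 10.31 in vector EB 2 against 4.14 and 4.52 (4.60 ± 0.76). Mef2c and Tbx20, cardiac transcription factors, rose by 3.87 ± 0.16 and 3.27 ± 0.46. Myh6, the alpha myosin heavy chain, read 5.81 and 8.81 against 4.60 and 4.36 (2.83 ± 0.86, adjusted p = 0.025), and was not called without either ES cell array (0.08 and 0.1) or with quantile-normalized values (0.057). Nkx2-5 read 6.19 and 7.11 against 5.78 and 5.80 and was not called (adjusted p = 0.05). Without vector EB 2, 13 members were called higher and 2 lower.

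Actc1, the cardiac alpha actin, read 8.03 and 10.74 against 5.47 and 5.58 (3.86 ± 0.73). Its promoter is shown, after its values were seen, because it holds the CArG box, the element of serum response factor in muscle genes. The 250 bases lie at chr2:114052876-114053125 on the minus strand of GRCm38.p6 (RefSeq), and capitals mark the box, 47 to 38 bases before the start.
Actc1: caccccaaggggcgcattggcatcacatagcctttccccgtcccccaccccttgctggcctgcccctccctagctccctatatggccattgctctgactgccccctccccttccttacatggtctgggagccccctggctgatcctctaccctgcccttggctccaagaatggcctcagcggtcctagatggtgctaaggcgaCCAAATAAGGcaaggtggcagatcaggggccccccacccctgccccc
The box, whose pattern is the same on both strands, was found in 1.47% of windows, in 3 of 23 heart genes with a listed promoter and in 1 of 9 smooth muscle genes. No other motif searched overlapped it here.

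Smooth muscle genes rose in 8 of 13 measured members, with none lower and a median of 1.23 (5 called without the untreated array). Acta2, the smooth muscle alpha actin, read 12.01 and 11.99 against 6.69 and 7.08 (5.11 ± 0.25), with another, dim probe set at -0.02. Cald1 (caldesmon) rose by 3.83 ± 0.39 and Actg2, the enteric actin, by 2.56 ± 0.20. Cnn1 (calponin) was at 1.09 ± 0.27, and at 0.83 without the untreated array, where it was not called, as with quantile-normalized values (0.71).

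Epithelial genes divided. The simple keratins rose: Krt18 read 10.10 and 12.06 against 6.43 and 7.37 (4.18 ± 0.71), Krt8 10.54 and 12.04 against 7.64 and 8.59 (3.17 ± 0.63), Krt7 rose by 3.20 ± 0.47 and Krt19 by 2.89 ± 0.54. Epcam, an adhesion protein of ES cells and epithelia, read 8.55 and 10.44 against 11.74 and 11.68 (-2.21 ± 0.54), a call lost without the untreated array (adjusted p = 0.053) and with quantile-normalized values (0.054). In all, 5 of 16 measured were called higher and 5 lower, with a median of 0.57, near the 22.7% and 35.8% of all tested genes. The counts were 8 and 2 without vector EB 1, and 5 and 1 without the untreated array, and the median was -0.12 without vector EB 2.

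Trophoblast and placental genes had a median of 1.57 over all 12 measured. Of these 3 were too dim to test, 7 were called higher and none lower. Plac1 read 8.24 and 8.12 against 4.76 and 4.79 (3.41 ± 0.26). The homeobox neighbours Rhox6 and Rhox9, whose probes may read each other, rose by 3.92 ± 0.48 and 3.85 ± 0.45, and Peg10, a retrotransposon-derived placental gene, by 2.0 ± 0.33. Of these, Hand1 and Krt7 also stand in other lists above.

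Neural genes showed no common direction, with 3 of 25 measured called higher, 7 lower and a median of -0.04, and their counts are not above the shares of all tested genes (22.7% and 35.8%). Zic1 and Fabp7, of neural progenitors, rose by 4.09 ± 0.80 and 4.04 ± 0.47; Fabp7 read 7.56 and 8.67 against 4.14 and 4.0. Neurod1, a neuronal factor, read 4.69 and 5.10 against 7.61 and 7.43 (-2.63 ± 0.21), and Sox3, Elavl3 and Nefl fell by 1.71 ± 0.19, 1.73 ± 0.20 and 2.63 ± 0.46, with another probe set of Sox3 at 0.45. Tubb3, neuronal tubulin, was at -2.51 ± 0.64 and Pax6 at -1.20 ± 0.38. Both calls were lost without either ES cell array (adjusted p between 0.051 and 0.13), that of Pax6 also without vector EB 1 (-0.69), and the 4 other probe sets of Pax6 were at -1.95, -0.41, 0.19 and 0.34. The list had 4 members called lower without the vector ES array, and its median was 0.09 without vector EB 1.

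Hox genes, which mark position along the body axis, rose in part. Of 32 measured 18 could be tested, of which 14 were called higher and 1 lower (22.7% and 35.8% of all tested genes). A gene dim in ES cells was tested only where embryoid body arrays were bright. The filter therefore favours rises among such genes, and the count of 14 is no support for a rise of the group. The median over all 32, tested or not, was 1.08 (1.18 and 1.04 in vector EB 1 and 2). Hoxd10 read 7.25 and 6.63 against 3.50 and 3.61 (3.39 ± 0.23), Hoxa11 7.81 and 7.60 against 4.63 and 4.43 (3.17 ± 0.26), and Hoxa10 6.77 and 6.56 against 3.51 and 3.74 (3.04 ± 0.19). Hoxc10, Hoxd9 and Hoxd11 rose by 2.84 ± 0.31, 2.32 ± 0.22 and 2.07 ± 0.18. All 6 were near or below the array median in ES cells, Hoxd9 at 5.63 and 5.56 the highest. Hoxc13, named as the single member called lower, was at -0.82, and its call was lost without vector EB 2 or either ES cell array.

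Imprinted genes, expressed from 1 parental copy, included 2 of the 20 largest rises, Igf2 and Dlk1. In all, 13 of 20 measured were called higher and 1 lower, with a median of 1.79 (2.09 with quantile-normalized values). The lower call, that of Phlda2 (-0.93), was lost without vector EB 1 or either ES cell array and after quantile normalization. Igf2, the fetal growth factor, read 13.91 and 13.59 against 6.90 and 7.18 (6.71 ± 0.31, about 105-fold). Dlk1, a non-canonical Notch ligand, read 12.20 and 11.84 against 5.89 and 5.02 (6.56 ± 0.32). Nnat (neuronatin) rose by 3.72 ± 0.16, Plagl1, a zinc finger factor, by 3.39 ± 0.25, Sgce by 3.29 ± 0.20 and Ndn (necdin) by 3.13 ± 0.22. Other, dim probe sets of Plagl1 and Ndn were at -0.58 and -0.28. Igf1 and the IGF binding protein gene Igfbp4 rose by 2.49 ± 0.27 and 4.34 ± 0.24, and the receptor gene Igf1r by 1.92 ± 0.33, with another probe set of it at -0.15. Of 11 measured genes of IGFs, their receptors and binding proteins, 7 were called higher and none lower.

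Among secreted signals, Wnt genes had 10 of 21 measured called higher and 1 lower (median 0.90). The lower call, that of Sfrp4 (-0.95), was lost without vector EB 2 or either ES cell array. Ligands and inhibitors rose side by side: Wnt2, Wnt5a and Wnt11 by 4.03 ± 0.37, 3.60 ± 0.55 and 1.95 ± 0.25, and the inhibitors Dkk2, Dkk1 and Frzb by 4.69 ± 0.28, 3.88 ± 0.44 and 3.49 ± 0.64. In the BMP list 8 of 17 measured were called higher and 3 lower (median 1.31), with 5 lower without vector EB 2. Bmp5 read 7.28 and 8.32 against 2.96 and 3.12 (4.76 ± 0.35), Bmp2 rose by 3.90 ± 0.48, the pseudoreceptor gene Bambi by 2.43 ± 0.23 and the target Msx1 by 1.95 ± 0.18. Bmp4 and Id1, both bright in ES cells and named after their values were seen, were at -1.92 and -2.02, and Id1 was not called without the vector ES array (-1.70, adjusted p = 0.079) or with quantile-normalized values (-1.30). Smad7, an inhibitory Smad, was the third called lower, at -1.5 ± 0.26.

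FGF genes were called in both directions, at shares close to those of all tested genes (22.7% higher and 35.8% lower). Fgf17 and Fgf18 read 4.98 and 5.34, and 4.46 and 4.13, in embryoid bodies, against 8.82 and 8.30, and 7.75 and 7.20, in ES cells, falls of 3.40 ± 0.23 and 3.18 ± 0.25. Fgf4, which primes ES cells to differentiate, fell by 3.16 ± 0.73, and the feedback inhibitor genes Spry4 and Spry2 by 3.09 ± 0.39 and 1.72 ± 0.36. The receptor genes Fgfr2 and Fgfr3 rose by 1.96 ± 0.17 and 2.03 ± 0.19. Fgfr4 and Spry1 were also called higher, at 0.57 and 0.74, but neither without the vector ES array. Over the list, 4 of 18 measured were called higher (2 without the vector ES array) and 6 lower, with a median of 0.03.

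Nodal signalling, active in ES cells and the early streak, had 4 of 10 members called lower and 1 higher (median -0.82), while 35.8% of all tested genes were called lower. The higher call, that of the protease gene Furin (0.51), was lost without vector EB 1 or either ES cell array and after quantile normalization. Lefty1, a Nodal inhibitor, read 7.45 and 8.91 against 11.17 and 10.03 (-2.42 ± 0.56), not called without the untreated array (-1.85, adjusted p = 0.06), and Tdgf1 (Cripto), the co-receptor, fell by 2.91 ± 0.60. The number called lower was 1 and 2 without the untreated and the vector ES array and 7 without vector EB 2. Notch genes had 6 of 17 called higher and 2 lower (median 0.23), beside 22.7% and 35.8% of all tested genes. The targets Hey2 and Hey1 rose by 2.83 ± 0.31 and 1.76 ± 0.18, and the ligand gene Dll4, of arterial endothelium, by 1.15 ± 0.17. Jag2 and Dll3, at -0.79 and -0.95, were not called without the untreated array (adjusted p = 0.064 and 0.061) and were above 0 after centring on housekeeping genes. The number of Notch genes called lower was 0 without the untreated array and 4 without vector EB 2.

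MHC class I presentation rose in part, with 5 of 10 measured called higher and 1 lower (median 0.66). B2m, the class I light chain, read 12.06 and 11.27 against 8.90 and 9.11 (2.66 ± 0.30), and Tapbp (tapasin) and Psmb8 rose by 1.36 ± 0.17 and 1.72 ± 0.20, with a dim probe set of Psmb8 at -0.11. Psmb10, another immunoproteasome subunit, fell by 2.29 ± 0.19. H2-D1, a class I heavy chain, was at 1.41 ± 0.32, and 3 of its 8 other probe sets were between 1.18 and 1.36, whereas 5 dimmer ones were between -1.48 and -0.11. Of 14 germ cell genes, 2 were called higher and 2 lower (median -0.53), not above the shares of all tested genes (22.7% and 35.8%). Ddx4 and Dnd1 fell by 2.23 ± 0.44 and 2.14 ± 0.33, and Stra8 rose by 1.30 ± 0.18. The other higher call, that of Taf7l (0.98), was lost without vector EB 1 or either ES cell array and after quantile normalization. Without vector EB 2, 6 germ cell genes were called lower.

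Genes of growth and division were lower, in an intensity range where the scaling matters. DNA replication and mitosis genes had 19 of 21 measured called lower and none higher, at a median of -1.34, but 10 called at a median of -0.63 with quantile-normalized values. Ccne1 (cyclin E1) stood out, at 8.20 and 8.36 against 11.83 and 11.60 (-3.44 ± 0.19, and -2.85 with quantile-normalized values). Birc5 (survivin) and Aurkb, of the chromosomal passenger complex, fell by 2.19 ± 0.17 and 1.89 ± 0.22. Ribosome assembly and Myc genes had 18 of 18 called lower at a median of -1.84, and 15 at -1.10 with quantile-normalized values. Bop1, of ribosomal RNA processing, read 7.29 and 8.06 against 10.25 and 10.21 (-2.56 ± 0.25), and Srm, spermidine synthase, fell by 2.91 ± 0.38.

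Cell cycle inhibitors had 3 of 7 called higher and 1 lower, beside 22.7% and 35.8% of all tested genes. Cdkn2b (p15) read 7.66 and 7.86 against 5.57 and 5.46 (2.24 ± 0.18) and Cdkn1a (p21) rose by 1.24 ± 0.16. Cdkn2a, the neighbour of Cdkn2b, encodes p16 and Arf and read 4.42 and 4.16 against 6.11 and 5.88 (-1.71 ± 0.18). The third rise, that of Cdkn1b (p27), was 0.73 ± 0.26, was lost without any 1 of the 4 arrays and turned to -0.11 with the mean of its probe sets, of which a dim one was at -0.95.

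Glycolysis genes had 6 of 13 called lower and none higher as deposited (median -0.63), where 35.8% of all tested genes were called lower. With quantile-normalized values 5 were called higher and 3 lower (median 0.33), so their direction as a group flipped with the scaling. Pgam1 and Hk2 fell under both, by 1.90 ± 0.15 and 1.94 ± 0.19 as deposited and at -0.98 and -1.07 with quantile-normalized values. Aldoa was at -0.63 as deposited and 0.34 with quantile-normalized values. Slc2a3, a glucose transporter, was at -1.18 and -1.29 by its brightest probe sets but at 2.3 and 3.05 by the dimmer ones. Without either ES cell array 3 members were called. General housekeeping genes, a check of the scale, had 13 of 17 called lower and 1 higher (Reep5, at 2.01 ± 0.30), with a median of -0.86 as deposited and of -0.02 with quantile-normalized values.

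**Figure D3:**
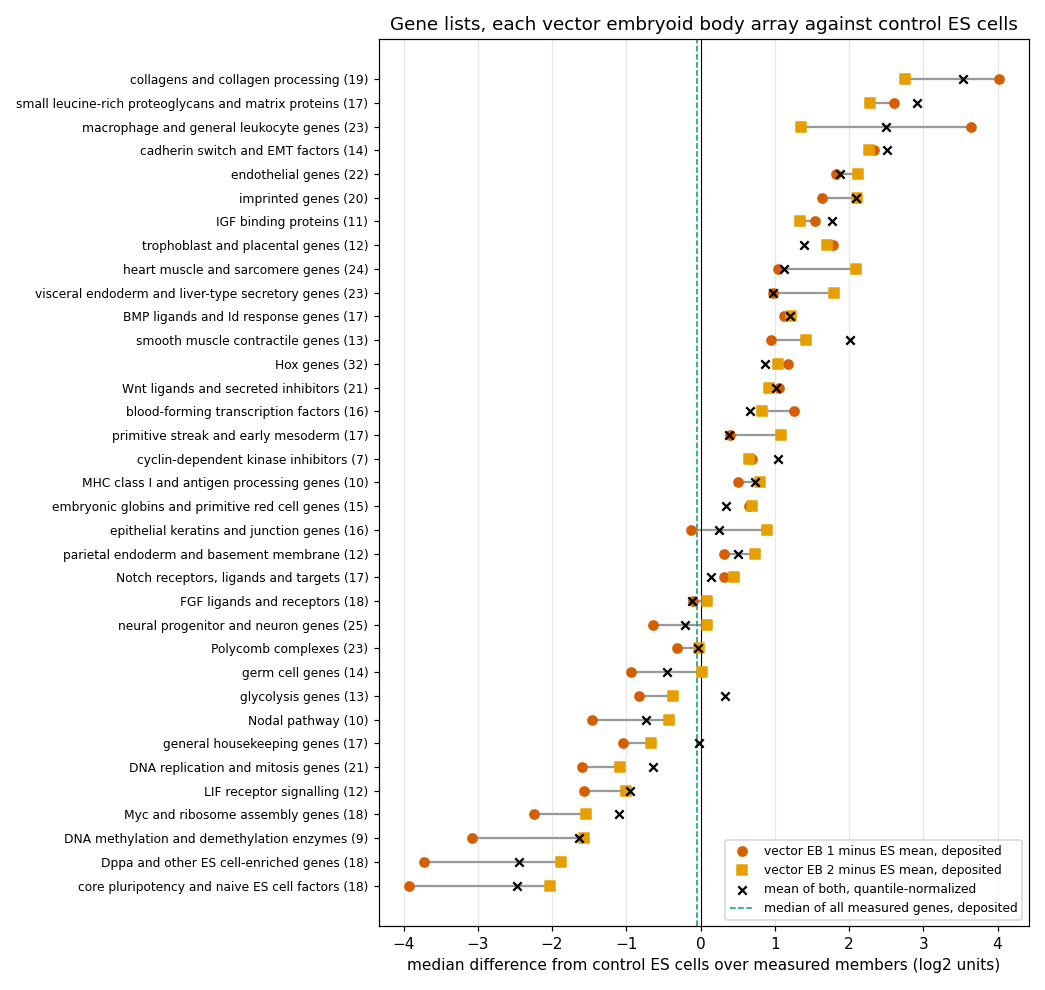
Median log2 difference from the control ES cell mean (horizontal axis, log2 units) over the measured members of each gene list, with the number of members in brackets, for vector EB 1 and vector EB 2 as deposited and for their mean with quantile-normalized values. Collagens lie highest, at 4.02 and 2.76, the core pluripotency factors lowest, at -3.93 and -2.03, and glycolysis genes move across 0 with the scaling.

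The embryoid body arrays differed from each other more than the ES cell arrays did. The root mean square difference over tested genes was 0.67 log2 units between vector EB 1 and 2 and 0.23 between untreated and vector ES cells. At least 4-fold apart were 156 genes in the former pair and none in the latter. Vector EB 1 had moved further from ES cells in 610 of the 665 large falls and in 654 of the 978 large rises. All 18 pluripotency factors were lower in vector EB 1 (median -1.89, and -1.82 with quantile-normalized values), all 23 macrophage genes were higher in it (2.13 and 2.41), and 19 of 24 heart muscle genes were lower in it (-0.99 and -0.92). Over all tested genes 40.8% were higher in vector EB 1, with a median of -0.13.

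The 5 genes furthest apart in each direction included products of leukocytes and of placenta. Highest in vector EB 1 over vector EB 2 were Fmod (fibromodulin), at 8.91 and 5.39, Lyz1 (lysozyme), at 9.96 and 6.73, Gm3715, Ms4a6b and Clec4a3. Highest in vector EB 2 were Ctsj, a placental cathepsin, at 3.25 and 7.38, Prl7d1, a placental prolactin-like hormone, at 3.55 and 7.59, Lin28a, Etv5, which lies downstream of FGF signalling, and Otx2, an anterior neural and ES cell factor, at 6.10 and 9.38. Fmod, Clec4a3, Lin28a, Ms4a6b and Etv5 were not called against ES cells without either ES cell array. All of these but Clec4a3 were also not called with quantile-normalized values. Lin28a (-1.44), Ms4a6b (0.95) and Etv5 (-1.73) were not called without vector EB 1 either. Gm3715, Ctsj, Prl7d1 and Otx2 were not called in the comparison at all. As 1 array stands for each side of these contrasts, these are descriptions, and what sets the arrays apart was not tested. In the replicate 1 and 2 arrays labelled Bmi1, which came in the same 2 array sets, the median difference was -1.14 for the pluripotency factors, 0.31 for macrophage genes and -0.22 for heart muscle genes.

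**Figure D4:**
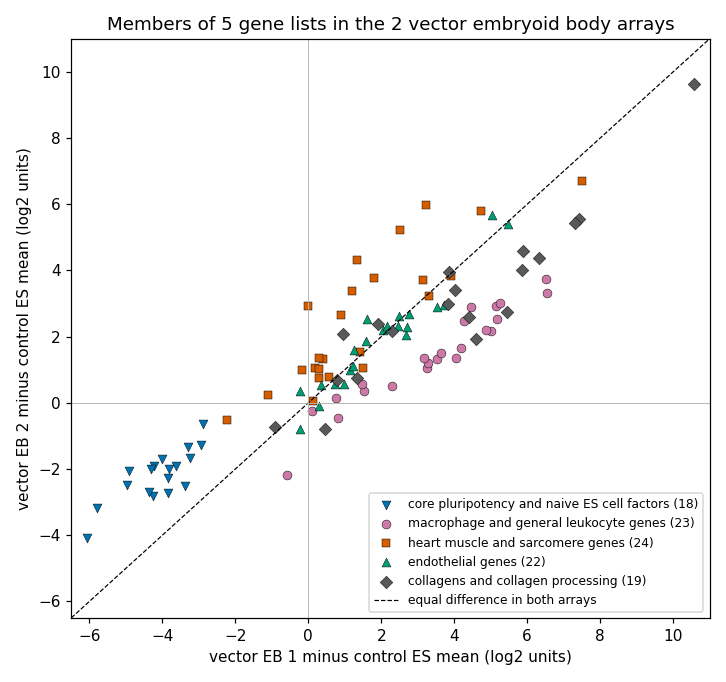
Log2 difference from the control ES cell mean in vector EB 2 (vertical axis) against vector EB 1 (horizontal axis) for the members of 5 gene lists, 1 point per gene, with a dashed line of equal difference. Pluripotency factors lie below 0 on both axes and above the line, macrophage genes lie below it in all 23 cases, and 19 of 24 heart muscle genes lie above it.

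The stage change was set beside that of the arrays labelled Bmi1, which share no array with it but lie in the same array sets. Of the 1643 large changes, 1638 had the same sign there. In 1634 the labelled embryoid body arrays also lay apart from the labelled ES cell arrays in the same direction. Such shares were not computed over all tested genes for the labelled arrays. In the control comparison 32.2% of all tested genes lay apart upward and 48.8% downward. With array sets in common, this likeness is a description and no independent replication. A test of the difference between the stage changes called 0 of 12982 genes (0%) by limma, with 887 at unadjusted p under 0.05. Without vector EB 2, 100 genes were called in that test, and with the replicate number as a block 107 were. Same-numbered embryoid body arrays share an array set, and their deviations from the group means correlated at 0.72. The 5 genes of opposite sign, named after their values were seen, were Cracd, Gjb5, Myl9, Ptgs2 and Thbs1, with adjusted p between 0.2 and 0.7 for that difference. Myl9, a smooth muscle myosin light chain, read 8.65 and 9.33 in vector embryoid bodies against 6.10 and 6.94 in control ES cells, but 8.62 and 8.81 against 8.70 and 8.92 in the labelled arrays. Thbs1 (thrombospondin 1) likewise read 7.60 and 8.02 against 5.06 and 5.68, but 7.09 and 7.44 against 7.23 and 8.13. In both genes the embryoid body levels were alike, and the labelled ES cell arrays were higher than the control ES cell arrays. Col3a1 rose by 10.11 in vector and by 10.04 in labelled arrays, and Pou5f1 was at -5.07 and -5.30. Dlk1 was at 6.56 and 4.21 and Hbb-y at 8.04 and 6.68, differences that did not pass (adjusted p = 0.24 and 0.49).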

How the data were processed

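The deposited values are log2 signals of Affymetrix probe sets on 8 arrays; the authors computed them by RMA, per the submitters' processing notes. Which arrays were normalized together is unstated. All columns were matched to samples by name. Of 45037 probe sets left after 64 array controls were removed, 34945 carried 1 gene symbol, 932 several and 9160 none; for each of 18193 genes the brightest probe set was kept. Genes above the array median on at least 2 arrays (12982) were tested with limma 3.58.1 in R 4.3.3, in a model of 4 groups over 8 arrays with 4 residual degrees of freedom. Adjusted p is Benjamini-Hochberg over all tested genes, with a threshold of 0.05; errors after ± are standard errors of the fit with n = 2 arrays in each group.

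Lists held 633 entries in 35 gene groups, of which 595 were measured. Members and lists were chosen with earlier results of these data known, so their counts are descriptions. Genes named are the 20 largest rises and falls, from each list the tested members ranked first by p (at most 6), the cell type markers, and the 5 furthest apart between embryoid body arrays in each direction. Others are named as single exceptions or as chosen after their values were seen. The numbers of the ES cell arrays follow accession order and pair nothing. The test was checked on simulated data with independent arrays and no array sets. It recovered 78 of 100 changes of 2 log2 units and 93 of 100 of 3, with 8 false calls. As the simulated arrays shared no set, this check cannot address differences between array sets. Alternatives were the filter, the probe set rule, 3 other scalings, the prior, array weights, a 4-array fit, a replicate block, a 2-fold test and leaving out each array. Promoters are from the RefSeq table of GRCm38.p6, with motifs chosen after the sequences were seen.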

Additional observations from a re-analysis of the deposited data

Results flagged for a closer look

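Only the genes named by rule were searched for arrays labelled Bmi1 that moved the opposite way between stages from the control arrays. In 3 of these genes every labelled array did so, and the difference between the stage changes did not pass the test of that difference. Gjb5, outside that search, moved this way as well. It read 6.01 and 7.02 in vector embryoid bodies against 8.61 and 8.89, but 8.73 and 8.51 against 7.99 and 8.00 in the labelled arrays (adjusted p = 0.2 by limma). Igfbp3, an IGF binding protein, was at 1.44 in control and -1.54 in labelled arrays, a difference of -2.98 (adjusted p = 0.13). Its signals were 9.45 and 9.24 in vector embryoid bodies and 7.82 and 7.99 in control ES cells, but 8.00 and 8.65 against 9.83 and 9.90 in the labelled arrays. Cnn1 was at 1.09 and -0.26, a difference of -1.34 (adjusted p = 0.47). Furin was at 0.51 and -0.16, a difference of -0.67 (adjusted p = 0.67).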

How the results depend on the processing

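Of the values of single genes under alternatives, 4632 kept direction and side of the threshold, 210 lost their call, 32 gained one and 16 turned sign; of the list medians 521 stayed within the spread, 92 moved and 17 turned. The cause of these changes was not tested, except that fewer or more features were tested where the rule says so. Testing every probe set called 12653 (2919 at 4-fold or more), and a test against a 2-fold change called 1870 genes. Genes called for a different stage change in labelled arrays numbered 1 with the mean of probe sets, and 0 to 100 when 1 array was left out. With the replicate number as a block they numbered 107, and 9712 genes were called between stages; same-numbered arrays correlated at 0.72 within embryoid bodies but at 0.04 and 0.03 with the ES cell array of that number, so the numbers mark a shared array set within embryoid bodies and pair nothing across stages.

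With the mean of probe sets Cdkn1b was at -0.11, Slc2a3 at 0.72 and the neural median at 0.13. With quantile normalization Aldoa was at 0.34, the glycolysis median at 0.33 and the FGF median at -0.11. With median centring Cdkn2d was at -0.094, the FGF median at -0.30 and the Notch median at -0.088. Centring on housekeeping genes, which moved the median of all tested genes to 0.81, put Smad2 at 0.34, Pdk1 at 0.018, Aldoa at 0.41, Jag2 at 0.25, Dll3 at 0.090, Lifr at 0.027, Amn at 0.24 and Cd68 at 0.96. It put the medians of Nodal genes at 0.23, germ cell genes at 0.52, Polycomb at 0.93, neural genes at 1.01, glycolysis at 0.41 and housekeeping genes at 0.19.

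Leaving out 1 array moved Cd68 between -0.26 and 0.10, Ctsj between -0.18 and 3.95 and Otx2 between -1.13 and 2.15. Medians moved between -0.94 and 0.023 for germ cell genes, -0.65 and 0.25 for neural genes, -0.12 and 0.89 for epithelial genes and -0.097 and 0.081 for FGF genes. Genes above the array median on fewer than 2 arrays were not tested, and 50 of them were called at 4-fold or more in the unfiltered fit.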
